A study of Mus musculus with 8 samples.

Results

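The lectin-like receptors of natural killer (NK) cells described here are 10 of the 32285 genes in the count matrices: Klra3, Klra4, Klra7, Klra8, Klra9, Klrb1c, Klrc2, Klrd1, Klre1 and Klrk1. They were taken by symbol, with earlier results of these data known, and were followed in NK cells and T cells that had been gated on other marker genes. All 10 were detected in the NK cells of every library. The data are single-cell RNA counts of live CD45+ cells sorted from posterior eye cups (retina with the complex of retinal pigment epithelium, choroid and sclera), with antibody-derived tags read from the same cells. The study asked how the loss of Nr4a1, an orphan nuclear receptor needed for non-classical monocytes, changes ocular immune cells in laser-induced choroidal neovascularization, a mouse model of neovascular macular degeneration. Eyes were pooled within each group before sorting, so each group is 1 RNA library and no difference between groups has a replicate check.

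The groups were Nr4a1-/- laser, Nr4a1-/- control, WT laser and WT control. All mice were female and 10 to 12 weeks old. Nr4a1-/- mice carried a germline deletion allele in every cell, of the line B6;129S2-Nr4a1tm1Jmi/J, and WT mice were C57BL/6J; both were bred in house. The sample labels give C57BL/6J for all 4 groups. The laser groups received 8 focal burns per eye and were taken on day 3, and the control groups received no laser, which the labels also call sham. The library of Nr4a1-/- control carries a different library number from the other 3, so any batch effect cannot be told apart from genotype in the control pair, or from laser within Nr4a1-/-.

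NK cells kill infected or transformed cells and release interferon gamma, under the balance of inhibitory and activating receptors that are read from 1 gene cluster, the NK gene complex. In mice the Ly49 receptors, products of the Klra genes, bind MHC class I molecules. Klra3 (Ly49C), Klra7 (Ly49G) and Klra9 (Ly49I) are inhibitory and carry a tyrosine motif in the cytoplasmic tail. Klra4 (Ly49D) and Klra8 (Ly49H) lack it and signal through the adaptor DAP12, the product of Tyrobp. Each NK cell switches on only some Ly49 genes. Klrd1 (CD94) pairs with Klrc2 (NKG2C) to bind Qa-1, the product of H2-T23, Klrk1 (NKG2D) binds stress-induced ligands and signals through DAP10, the product of Hcst, Klre1 forms heterodimers with other receptors of the complex, and Klrb1c encodes NK1.1, the antigen used to stain NK cells in C57BL/6 mice. Ly49H recognises a protein of mouse cytomegalovirus, and its gene is present in C57BL/6 and absent from the 129 haplotype of the complex.

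The 10 genes lie on chromosome 6 (GRCm38), from Klrb1c, which starts at 128778485, to Klra3, which ends at 130337574. Klrd1 and Klre1 are on the plus strand and the other 8 on the minus strand. The first 36 coding bases of the 5 Ly49 genes (GENCODE M21) are shown because they hold the codon of the motif tyrosine, a difference between the inhibitory and activating members. Codon 8 is in capitals.
Klra3: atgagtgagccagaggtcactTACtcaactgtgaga
Klra7: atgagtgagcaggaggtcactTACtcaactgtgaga
Klra9: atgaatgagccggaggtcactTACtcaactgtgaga
Klra4: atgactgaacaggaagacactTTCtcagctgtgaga
Klra8: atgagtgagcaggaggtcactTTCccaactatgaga
Codon 8 encodes tyrosine in Klra3, Klra7 and Klra9 and phenylalanine in Klra4 and Klra8, and the inhibitory motif, which begins at residue 6, was found in those 3 genes and not in the other two. Over the whole coding sequence the function of a gene did not follow its similarity. The inhibitory Klra9 was 95.9% identical to the inhibitory Klra3 and 92.3% identical to the activating Klra8, whereas Klra4 and Klra8 were 82.2% identical.

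The longest run common to the promoter windows of the 5 Ly49 members was 11 bases, upstream of each start site (RefSeq, GRCm38.p6, minus strand). The stretches of 60 bases that end shortly after this run are shown because they pair the 5 genes in part as the tail does, and in part not. The run, TTTCCTCTTTT, is in capitals.
Klra3, chr6:130337631-130337690: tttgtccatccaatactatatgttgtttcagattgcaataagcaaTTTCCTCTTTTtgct
Klra9, chr6:130193136-130193195: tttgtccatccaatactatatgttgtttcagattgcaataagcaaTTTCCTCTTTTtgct
Klra7, chr6:130233397-130233456: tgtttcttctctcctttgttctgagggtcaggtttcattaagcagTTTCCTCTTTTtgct
Klra4, chr6:130067336-130067395: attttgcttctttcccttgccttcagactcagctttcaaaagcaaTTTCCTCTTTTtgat
Klra8, chr6:130129964-130130023: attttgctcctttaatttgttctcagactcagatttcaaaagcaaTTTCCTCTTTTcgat
Klra3 and Klra9 differed at 0 of the 60 bases and Klra4 and Klra8 at 9, against 23 to 30 for the other pairs, so that Klra7 stood apart from the inhibitory genes with which it shares the tail motif. The run was found, on either strand, in 49 of the 32851 RefSeq promoter windows (0.149%), which reach 250 bases before and 50 after each start. The run was picked as common to these 5 genes, so its presence in them is given by that choice. Whether the other members hold it was not read out. The match is a description of the letters and not evidence of a bound factor. Of the 10 members, 9 had a promoter entry, and Klrd1 is named only.

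Similar sequences limit the counts. Reads of 90 bases from the last 500 transcript bases of Klra9 could also come from Klra10, Klra11-ps or Klra8 at 18.98% of positions, and those of Klrc2 from Klrc1 at 18.5%. The shares were 10.2% for Klra7 (Klra13-ps) and 7.79% for Klra3 (Klra10). The values of these 4 genes are therefore uncertain, as is that of Klra8 where reads of Klra9 match it. The last 500 bases of the other 6 genes held no window found in another gene's transcripts.

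After the filter on detected genes and mitochondrial share, 11223 of 11624 cells were kept: 1649 in Nr4a1-/- laser, 2020 in Nr4a1-/- control, 3791 in WT laser and 3763 in WT control. The libraries held 7848548 to 38052948 RNA unique molecular identifiers (UMIs), with 1 to 7 cell barcodes shared by any pair of libraries. NK cells were gated on Ncr1, or on at least 2 of Eomes, Prf1, Gzma and Txk, without T cell CD3 genes. They numbered 110 in Nr4a1-/- laser, 177 in Nr4a1-/- control, 262 in WT laser and 304 in WT control, 853 in all, or 6.67%, 8.76%, 6.91% and 8.08% of the kept cells. The NK cells of Nr4a1-/- laser were shallower than the rest, with a median of 2380 UMIs, against 4588, 4990 and 4229 in the other libraries. Counts were summed over the gated cells of a library and given as CPM, UMIs of a gene scaled to a fixed total of UMIs of the same cells, and all intervals are exact 95% intervals that cover counting error only.

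NK cell genes that the gate did not use were also read. Of the 18 NK cell genes outside the complex, Ncr1, Eomes, Prf1, Gzma and Txk belong to the gate. The other 13, among them Nkg7, Ccl5 and Gzmb, were all detected in each library and summed to 23375 CPM in Nr4a1-/- laser, 24546 CPM in Nr4a1-/- control, 19168 CPM in WT laser and 24503 CPM in WT control. All 18 summed to 37917, 39084, 31078 and 39905 CPM in the same order. Of 9 T cell markers, Cd3d, Cd3e and Cd3g were at 0 by the gate and 4 or 5 were detected, summing to 346 to 503 CPM against 4031 to 4515 CPM in T cells. B cell markers summed to at most 24.9 CPM in any library. The 7 macrophage markers summed to 291 CPM in Nr4a1-/- control, above 136, 153 and 123 CPM in Nr4a1-/- laser, WT laser and WT control, and their part in the control-pair results was not tested. Nr4a1 was at 42.2 CPM in Nr4a1-/- laser and 108 CPM in Nr4a1-/- control, against 341 CPM in WT laser and 354 CPM in WT control, lower in both Nr4a1-/- libraries, although tags of the gene were still counted there.

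The activating receptor Klra4 was the most abundant member in the NK cells of both Nr4a1-/- libraries and of WT laser. It was at 1001 CPM in Nr4a1-/- laser, 1009 CPM in Nr4a1-/- control, 813 CPM in WT laser and 818 CPM in WT control. Both Nr4a1-/- libraries thus stood above both WT libraries, and laser and control were close within each genotype. The Nr4a1-/- to WT ratio was 1.23 (1.08 to 1.395) between the laser libraries and 1.23 (1.13 to 1.35) between the controls. The ratio of laser to control was 0.992 (0.869 to 1.13) in Nr4a1-/- and 0.995 (0.916 to 1.08) in WT. With each cell thinned to 2000 UMIs, the genotype ratio was 1.16 (0.952 to 1.398) between the laser libraries and 1.36 (1.19 to 1.56) between the controls, so the interval of the laser pair then included 1.

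The other activating Ly49 gene, Klra8, showed a different pattern. It was at 611 CPM in Nr4a1-/- laser, 700.2 CPM in Nr4a1-/- control, 532 CPM in WT laser and 711 CPM in WT control. Here the laser library was below its control in each genotype, by a ratio of 0.872 (0.737 to 1.03) in Nr4a1-/- and 0.748 (0.680 to 0.823) in WT, and the Nr4a1-/- to WT ratio was 1.15 (0.975 to 1.35) between the laser libraries and 0.985 (0.888 to 1.09) between the controls. Klra8 was thus counted at similar levels in both control libraries, although reads of Klra9 can match it. Only the Nr4a1-/- line has 129S2 in its name, and the haplotype of the complex in these mice was not tested.

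Klra3 and Klra9, the inhibitory pair with the shared upstream stretch, were the members with the lowest laser-to-control ratios. Klra3 was at 166 CPM in Nr4a1-/- laser against 280.1 CPM in Nr4a1-/- control, and at 161 CPM in WT laser against 243 CPM in WT control. The ratio was 0.592 (0.429 to 0.803) in Nr4a1-/- and 0.663 (0.559 to 0.786) in WT. Klra9 was at 491 CPM in Nr4a1-/- laser against 657 CPM in Nr4a1-/- control, and at 477 CPM in WT laser against 685 CPM in WT control. Its ratio was 0.747 (0.620 to 0.894) in Nr4a1-/- and 0.697 (0.631 to 0.769) in WT, so both genes were lower after laser in each genotype. Under alternatives of processing the Klra9 ratio ran from 0.716 to 0.934 in Nr4a1-/- and from 0.672 to 0.791 in WT. Its upper value in Nr4a1-/- lay outside the counting interval. The Klra3 ratio ran from 0.560 to 0.691 in Nr4a1-/- and from 0.639 to 0.734 in WT. The genotype ratios of Klra3 and Klra9 all had intervals that included 1: for Klra3, 1.03 between the laser libraries and 1.15 between the controls, and for Klra9, 1.03 and 0.959 in the same pairs.

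Klra7, the third inhibitory gene, did not move as these did in WT. It was at 354 CPM in Nr4a1-/- laser, 449 CPM in Nr4a1-/- control, 410.3 CPM in WT laser and 381 CPM in WT control. The laser-to-control ratio was 0.789 (0.633 to 0.978) in Nr4a1-/- and 1.08 (0.956 to 1.21) in WT. The value in Nr4a1-/- turned to 1.09 when each cell was thinned to 2000 UMIs, which left out 37 of the 110 NK cells of Nr4a1-/- laser.

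**Figure D1:**
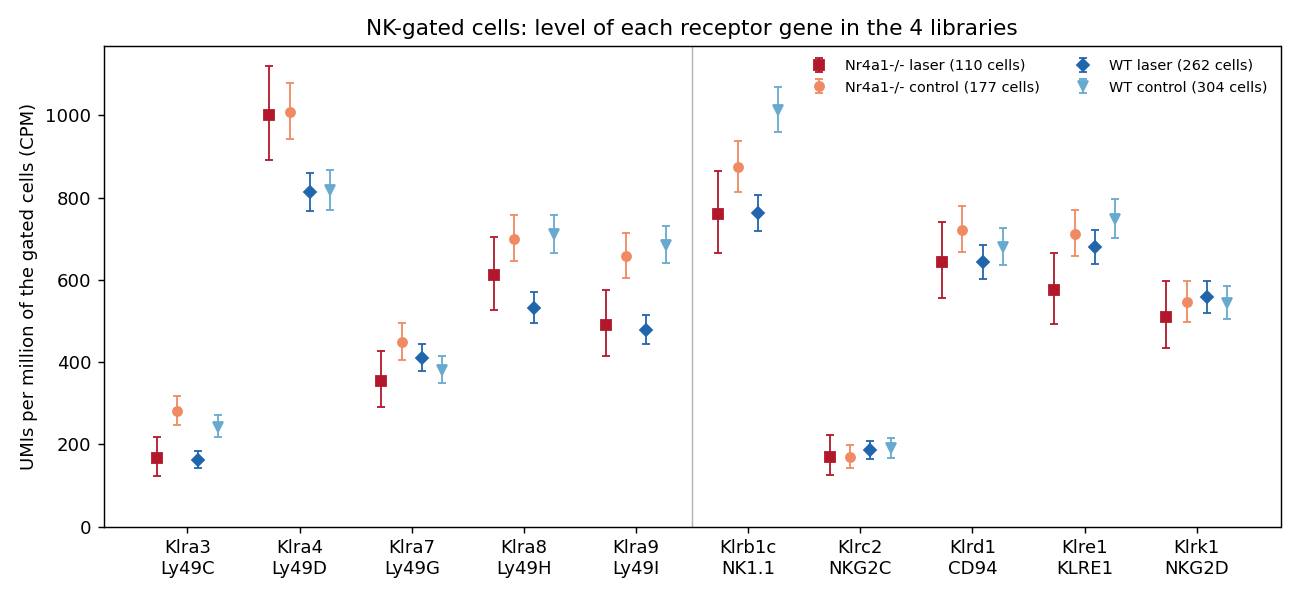
Level of each of the 10 receptor genes in NK-gated cells, in CPM with exact 95% counting intervals as bars, for Nr4a1-/- laser, Nr4a1-/- control, WT laser and WT control (1 library each). Klra4 lies near 1000 CPM in both Nr4a1-/- libraries and near 815 CPM in both WT libraries, while Klra3 and Klra9 lie lower in the laser library of each genotype.

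The receptors outside the Ly49 family differed in how far their levels ranged. Klrb1c, which encodes NK1.1, was at 760.2 CPM in Nr4a1-/- laser, 873 CPM in Nr4a1-/- control, 761.5 CPM in WT laser and 1013 CPM in WT control. WT control was the highest, giving a laser-to-control ratio of 0.752 (0.695 to 0.814) in WT and an Nr4a1-/- to WT ratio of 0.863 (0.788 to 0.943) in the control pair. The 2 laser libraries had almost the same level, with a ratio of 0.998 (0.864 to 1.15).

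Klrd1, the CD94 chain, was at 643 CPM in Nr4a1-/- laser, 722 CPM in Nr4a1-/- control, 643 CPM in WT laser and 681 CPM in WT control. Its partner Klrc2 was lower, at 169 CPM in Nr4a1-/- laser, 168 CPM in Nr4a1-/- control, 186 CPM in WT laser and 190.4 CPM in WT control. No ratio of either gene had an interval that left out 1, with bounds from 0.756 to 1.18 for Klrd1 and from 0.663 to 1.38 for Klrc2. Klrc1, which encodes the inhibitory NKG2A chain that also pairs with CD94, was at 81.2 CPM in Nr4a1-/- laser, 120 CPM in Nr4a1-/- control, 110 CPM in WT laser and 155 CPM in WT control.

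Klrk1, which encodes NKG2D, had the narrowest range of ratios of the 10 genes in NK cells. It was at 510.1 CPM in Nr4a1-/- laser, 545 CPM in Nr4a1-/- control, 557 CPM in WT laser and 544 CPM in WT control. Its 4 ratios ran from 0.916 to 1.02, each with an interval that included 1. Klre1 was at 575 CPM in Nr4a1-/- laser, 712 CPM in Nr4a1-/- control, 679 CPM in WT laser and 747 CPM in WT control, with the lowest value in Nr4a1-/- laser. Its Nr4a1-/- to WT ratio was 0.847 (0.718 to 0.995) between the laser libraries and 0.952 (0.860 to 1.05) between the controls, and the laser-to-control ratio was 0.808 (0.680 to 0.956) in Nr4a1-/- and 0.908 (0.831 to 0.992) in WT.

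Between genotypes in NK cells, the members were set against all genes. No member differed 2-fold in either pair. Of 7162 genes with 20 UMIs or more in the higher library, 7.02% were 2-fold lower and 2.35% 2-fold higher in Nr4a1-/- in the laser pair. In the control pair the shares were 1.97% and 1.21% of 6757 genes. With 10 members, no call is near these shares and does not set the members apart. The shares include genes near 20 UMIs, whose ratios vary more by counting error than those of the members. Intervals above 1 were found for Klra4 in the laser pair (1 of 10, against 5.28% of all genes) and for Klra4 and Klra7 in the control pair (2 of 10, against 7.01%). Intervals below 1 were found for Klre1 in the laser pair (1 of 10, against 5.85%) and for Klrb1c in the control pair (1 of 10, against 7.44%). These shares are 1 or 2 genes of 10 and do not set the members apart. The median ratio of the 10 members was 1.00 between the laser libraries and 0.994 between the controls, beside 0.979 and 0.996 over all genes in the same pairs.

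No member had a 2-fold ratio of laser to control either. The interval of Klra3 in Nr4a1-/-, 0.429 to 0.803, nevertheless included a 2-fold drop. Of all genes, 4.58% were 2-fold lower and 1.56% 2-fold higher after laser in Nr4a1-/-, and 1.25% and 2.74% in WT. With 10 members, no call is near these shares. Intervals below 1 were found for 4 members in Nr4a1-/- (Klra3, Klra7, Klra9 and Klre1, against 6.24% of 5721 genes) and for 5 members in WT (Klra3, Klra8, Klra9, Klrb1c and Klre1, against 8.55% of 7368 genes). No member had an interval above 1, against 6.05% of all genes in Nr4a1-/- and 9.73% in WT. Klra3, Klra9 and Klre1 were below 1 in both genotypes, and the median ratio of the 5 Ly49 genes was 0.789 in Nr4a1-/- and 0.748 in WT, beside 0.978 and 1.01 over all genes. The members were read in 51 to 1340 UMIs per library, so their intervals are narrower than those of genes near the minimum of 20 UMIs. The counts fell to 4 members in all, over both genotypes, when cells were thinned to 2000 UMIs, against the 9 given here.

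Summed, the 5 Ly49 genes gave 2622 CPM in Nr4a1-/- laser, 3095 CPM in Nr4a1-/- control, 2394 CPM in WT laser and 2838 CPM in WT control. The other 5 members gave 2658, 3021, 2826 and 3175 CPM in the same libraries. The Nr4a1-/- to WT ratio was 1.095 (1.01 to 1.18) for the Ly49 genes between the laser libraries and 1.09 (1.04 to 1.15) between the controls, and Klra4 carried most of that difference. For the other members it was 0.940 (0.872 to 1.01) between the laser libraries and 0.951 (0.906 to 0.999) between the controls. After laser the Ly49 sum was lower by a ratio of 0.847 (0.782 to 0.917) in Nr4a1-/- and 0.844 (0.806 to 0.883) in WT.

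**Figure D2:**
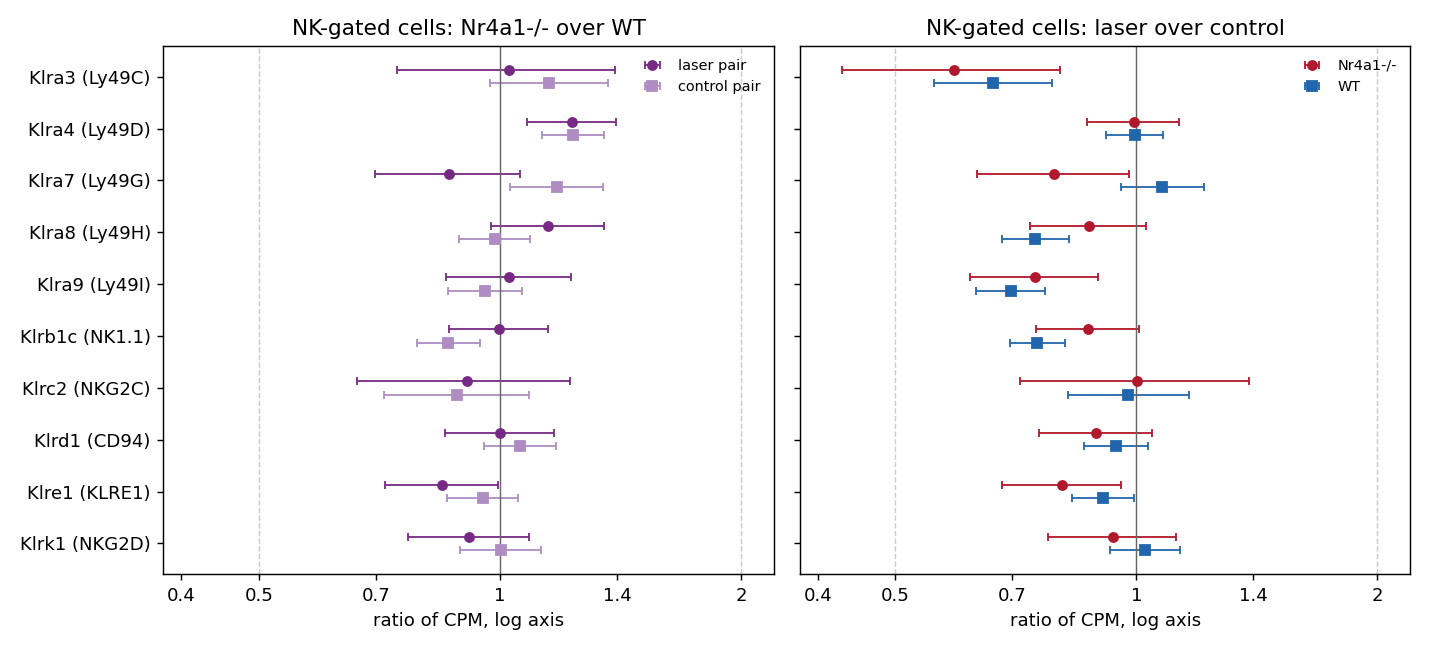
Ratio of CPM in NK-gated cells for each of the 10 genes, on a log axis with exact 95% counting intervals, for Nr4a1-/- over WT in the laser and control pairs and for laser over control in Nr4a1-/- and WT. The genotype ratios lie between 0.848 and 1.23, and the laser ratios of Klra3 and Klra9 lie below 1 in both genotypes.

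The level of a Ly49 gene reflects how many cells express it as well as how much each makes. Thinned to 2000 UMIs, Klra4 was detected in 49.3% of NK cells in Nr4a1-/- laser, 51.7% in Nr4a1-/- control, 47.8% in WT laser and 41.5% in WT control. Klra3 was detected in the fewest, level with Klrc2 in Nr4a1-/- control, at 16.4%, 27.0%, 18.4% and 25.6% in the same order of libraries. Unthinned, the Klra4 shares were 46.4%, 50.8%, 51.9% and 42.8%, and those of Klra3 were 16.4%, 39.0%, 28.6% and 28.9%. Klrb1c, by contrast, was detected in 80.9% to 93.8% of NK cells unthinned and in 71.4% to 82.2% thinned. B cells, which should lack these receptors, had a UMI of any Ly49 gene in 0% to 1.19% of cells at median depths of 2024 to 4291 UMIs. The 0 of 151 B cells in Nr4a1-/- laser allows a share of up to 1.99%.

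An NK cell thinned to 2000 UMIs had on average 2.14 ± 1.17 of the 5 Ly49 genes in Nr4a1-/- laser (SD over 73 cells), 2.26 ± 1.07 in Nr4a1-/- control (174 cells), 1.92 ± 1.18 in WT laser (255 cells) and 2.03 ± 1.18 in WT control (289 cells). The spread between cells of 1 library was several times the differences between libraries. Cells with no Ly49 UMI made up 12.3% (5.80 to 22.1), 4.598% (2.01 to 8.86), 13.3% (9.41 to 18.1) and 8.997% (5.96 to 12.9) in that order. At most 1.15% of the cells of a library had all 5 genes.

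**Figure D3:**
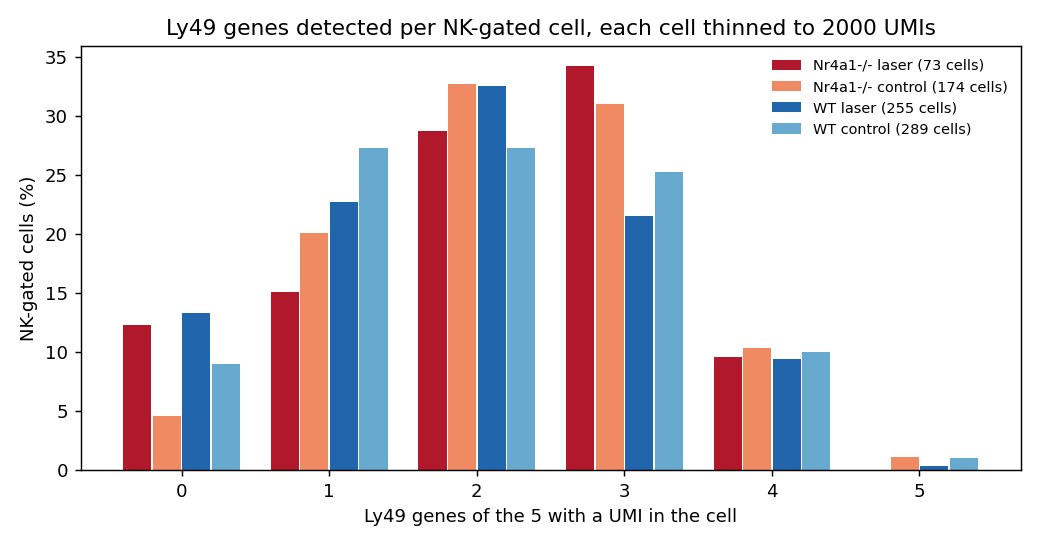
Share of NK-gated cells (%) with 0 to 5 of the 5 Ly49 genes detected after each cell was thinned to 2000 UMIs, for Nr4a1-/- laser (73 cells), Nr4a1-/- control (174), WT laser (255) and WT control (289). Most cells have 1 to 3 genes, and cells with none make up 12.3% and 13.3% in the laser libraries, against 4.598% and 8.997% in the controls.

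The activating genes Klra4 and Klra8 were found in the same cells more often than the product of their shares, although the interval of the observed share included the product in Nr4a1-/- laser, Nr4a1-/- control and, at its lower bound of 19.08% against 19.11%, WT control. Both were detected in 31.5% of cells in Nr4a1-/- laser, where the product was 25%, in 28.7% in Nr4a1-/- control (24.7%), in 25.9% in WT laser (18.2%) and in 23.9% in WT control (19.1%). The ratio of observed to product was 1.26, 1.17, 1.42 and 1.25. For the inhibitory Klra3 and Klra7 the ratio was 0.737, 0.721, 0.904 and 0.901, below 1 in every library but on only 4 to 24 cells with both. The pairs most alike upstream differed in these ratios. Klra4 and Klra8, which differ at 9 of 60 bases, had the ratios above 1 given here. Klra3 and Klra9, whose stretches are identical, had ratios of 0.961, 0.964, 0.889 and 0.951. Klra4 and Klra7, which differ at 28 of 60 bases, had ratios of 1.11, 1.06, 1.14 and 1.32. A link between these ratios and likeness upstream was not tested. These ratios are descriptions across the cells of 1 library, each cell thinned to the same depth.

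The antibody tag for NK1.1, the protein of Klrb1c, was sparse. It made up 51.0 (35.5 to 70.9) of 10000 tag UMIs in NK cells of Nr4a1-/- laser, 41.3 (35.8 to 47.4) in Nr4a1-/- control, 26.9 (22.9 to 31.4) in WT laser and 33.8 (29.8 to 38.2) in WT control. In B cells the values were 11.6, 34.0, 15.02 and 22.2 in the same order. The tag was thus above B cells in all 4 libraries, by less than 2-fold in 3 of them, with a median of 0 to 1 tag per NK cell. The order of libraries differs from that of Klrb1c RNA, and with this background no genotype difference can be read from it.

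Among other genes of the system, the adaptors were read as a group. Of 17 adaptor and signalling genes, none differed 2-fold in any of the 4 comparisons, against 1.21% to 7.02% of all genes in each direction. Their median Nr4a1-/- to WT ratio was 1.03 between the laser libraries and 1.01 between the controls. Tyrobp (DAP12), the partner of Ly49D and Ly49H, was at 2284 CPM in Nr4a1-/- laser against 2001 CPM in WT laser, and at 2185 CPM in Nr4a1-/- control against 2379 CPM in WT control. Hcst (DAP10), the partner of NKG2D, was at 413 CPM in Nr4a1-/- laser against 486 CPM in WT laser, and at 338 CPM in Nr4a1-/- control against 542 CPM in WT control, a ratio of 0.624 (0.543 to 0.716). Tyrobp, Hcst, Klrc1, Cd27, Klra5, Cd69, Rora, Il7r, Itga1 and the single mature NK genes were singled out after their values were seen. Of the ligand list, 6 or 7 of 10 genes had enough UMIs in NK cells and none differed 2-fold, including H2-K1, H2-D1 and H2-T23, with a median Nr4a1-/- to WT ratio of 0.909 between the laser libraries and 1.07 between the controls.

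Of the 33 other lectin-like genes of the complex, 29 were in the files and 12 had 20 UMIs in each genotype pair. Of these, 1 was 2-fold higher (Klra5) and 1 was 2-fold lower (Cd69) in Nr4a1-/- in the laser pair, and 1 was lower (Klra5) in the control pair. Klra5 (Ly49E) thus stood on opposite sides in the 2 pairs. Its 35 UMIs in Nr4a1-/- laser, 11 in Nr4a1-/- control, 6 in WT laser and 54 in WT control came from 11, 6, 3 and 13 cells. The median ratio of the list was 0.928 between the laser libraries and 0.835 between the controls. Of the 71 other annotated genes between the outer members, 36 were in the files and 11 had 20 UMIs, with a median of 0.941 between the laser libraries and 0.772 between the controls.

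The 6 genes of mature NK cells, among them Itgam, Zeb2 and Klf2, summed to 1533 CPM in Nr4a1-/- laser, 1778 CPM in Nr4a1-/- control, 1444 CPM in WT laser and 1792 CPM in WT control. The 5 genes of immature NK cells summed to 422, 313, 634 and 350 CPM in the same order. The sum of the first list was lower and that of the second higher in each laser library than in its control. In WT all 6 mature genes had laser-to-control ratios below 1, from 0.757 to 0.839. In Nr4a1-/- they were split, with Klf2 at 0.656 (0.543 to 0.788) and Zeb2 at 0.764 (0.613 to 0.945) but Itgam at 1.07 (0.818 to 1.39), Cx3cr1 at 1.38 (0.836 to 2.21) and Cma1 at 1.32 (1.02 to 1.68), and the median of the list was 0.964. The part of NK maturation in the Ly49 levels was not tested. Cd27, which marks less mature NK cells, had a laser-to-control ratio of 1.17 (0.688 to 1.94) in Nr4a1-/- and 2.98 (2.11 to 4.27) in WT. The 8 genes of type 1 innate lymphoid cells, which share Ncr1 with NK cells, summed to 221, 132, 271 and 249 CPM. In the control pair 3 of the 4 with enough UMIs (Rora, Gpr183 and Il7r) were 2-fold lower in Nr4a1-/-, against 1.97% of all genes. Gpr183 and Il7r rested on 5 and 8 UMIs in Nr4a1-/- control. In the laser pair, of 5 genes, 1 was 2-fold lower (Gpr183, against 7.02%) and 1 was 2-fold higher (Itga1, against 2.35%). Rora was there at 0.791 (0.543 to 1.12). The 18 NK cell genes outside the complex, among them those of the gate, had a median laser-to-control ratio of 0.940 in Nr4a1-/- and 0.794 in WT. Over all genes it was 0.978 and 1.01. Intervals lay below 1 for 6 of the 18 in Nr4a1-/- and for 10 in WT, and above 1 for 1 gene in each genotype. In WT, genes other than the receptors were thus also lower after laser, whereas in Nr4a1-/- the median was near that of all genes.

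Over all genes of NK cells, 3 were at least 2-fold higher and 21 at least 2-fold lower in Nr4a1-/- in both pairs, of 6529 with enough UMIs in both. The higher genes were Mrpl55, Mthfd2 and Cep164. Their ratios between the laser libraries were 2.33 (0.980 to 5.17), 2.27 (1.08 to 4.53) and 2.04 (0.870 to 4.42). The laser intervals of Mrpl55 and Cep164 thus included 1. Between the controls the ratios were 3.01, 2.11 and 2.09, each with an interval above 1. Whether 3 genes are more than the shares of the single pairs would give was not tested. The 5 leading lower genes were Ifitm1, Il1b, Igkc, Nr4a1 and S100a9. Il1b, Igkc and S100a9 are known as products of myeloid and B cells rather than of NK cells, each at 0 UMIs in Nr4a1-/- laser. No member of the receptor family was among them.

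T cells express some of these receptors after activation, above all NKG2D and CD94. T cells were gated on at least 2 UMIs of the CD3 genes and numbered 175 in Nr4a1-/- laser, 337 in Nr4a1-/- control, 621 in WT laser and 591 in WT control. CD8 cells made up 42.3%, 43.0%, 45.7% and 47.2% of them. The median depth was 2785 UMIs in Nr4a1-/- laser, against 5959, 5881 and 5668 in the others. In these cells the 18 NK cell genes outside the complex summed to 8935, 6297, 9529 and 7332 CPM, and the 7 macrophage markers to 476, 153, 246 and 127 CPM, in the same order of libraries. The part of either in the results below was not tested.

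All 10 members summed in T cells to 688 CPM in Nr4a1-/- laser against 910.4 CPM in WT laser, and to 482 CPM in Nr4a1-/- control against 627 CPM in WT control. The Nr4a1-/- to WT ratio was 0.756 (0.678 to 0.841) between the laser libraries and 0.769 (0.714 to 0.829) between the controls, whereas the median of all genes was 0.957 and 0.991 in the same pairs.

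Klrk1, the receptor for stress-induced ligands, differed between genotypes and after laser in T cells. It was at 166 CPM in Nr4a1-/- laser, 103 CPM in Nr4a1-/- control, 276 CPM in WT laser and 140 CPM in WT control. Both Nr4a1-/- libraries were below their WT partners, with ratios of 0.604 (0.482 to 0.748) between the laser libraries and 0.739 (0.627 to 0.868) between the controls. Both laser libraries were above their controls, with ratios of 1.61 (1.25 to 2.07) in Nr4a1-/- and 1.97 (1.77 to 2.19) in WT. In Nr4a1-/- no classed T cells showed this: the laser-to-control ratio was 1.09 (0.727 to 1.59) in CD8 cells, 0.604 (0.221 to 1.43) in gamma-delta cells and 0.322 (0.00771 to 2.06) in CD4 cells. It was 3.53 (2.26 to 5.56) in the T cells that fell in none of these classes, which were 34.3% of T cells in Nr4a1-/- laser and 27.9% in Nr4a1-/- control. In WT the ratio was 1.37 (1.19 to 1.58) in CD8 cells, 10.1 (5.66 to 19.5) in CD4 cells, 1.02 (0.768 to 1.37) in gamma-delta cells and 2.96 (2.35 to 3.76) in unclassed T cells, and gamma-delta cells, which had the highest level in WT, made up 8.86% of T cells in WT laser and 3.89% in WT control. The part of the mix of classes in the laser ratio was not tested. Thinned to 2000 UMIs, 17.9%, 10.1%, 29.2% and 16.0% of T cells had a Klrk1 UMI, the same order, against 0% to 0.882% of B cells.

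Klrd1, the most abundant member in T cells except in WT laser, was at 267 CPM in Nr4a1-/- laser, 210 CPM in Nr4a1-/- control, 250 CPM in WT laser and 203 CPM in WT control. The laser-to-control ratio was 1.27 (1.05 to 1.54) in Nr4a1-/- and 1.23 (1.12 to 1.35) in WT, while both genotype ratios had intervals that included 1. In B cells, which should lack it, Klrd1 was also higher after laser, at 49.1 CPM in Nr4a1-/- laser against 2.84 CPM in Nr4a1-/- control and at 26.3 CPM in WT laser against 6.95 CPM in WT control. The excess in B cells was of similar size to that in T cells in Nr4a1-/-, and its part in the T cell ratios was not tested. Klrc2 was at 31.1, 20.6, 60.5 and 25.8 CPM, with a laser-to-control ratio of 1.51 (0.808 to 2.71) in Nr4a1-/- and 2.35 (1.84 to 3.01) in WT. Klre1 was at 114, 50.3, 122 and 90.9 CPM, lowest in Nr4a1-/- control. Klrb1c stayed at 33.2 to 42.1 CPM with no interval that left out 1. Summed, the 5 members outside the Ly49 family were higher after laser in both genotypes, with ratios of 1.49 (1.31 to 1.68) in Nr4a1-/- and 1.52 (1.43 to 1.61) in WT.

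**Figure D4:**
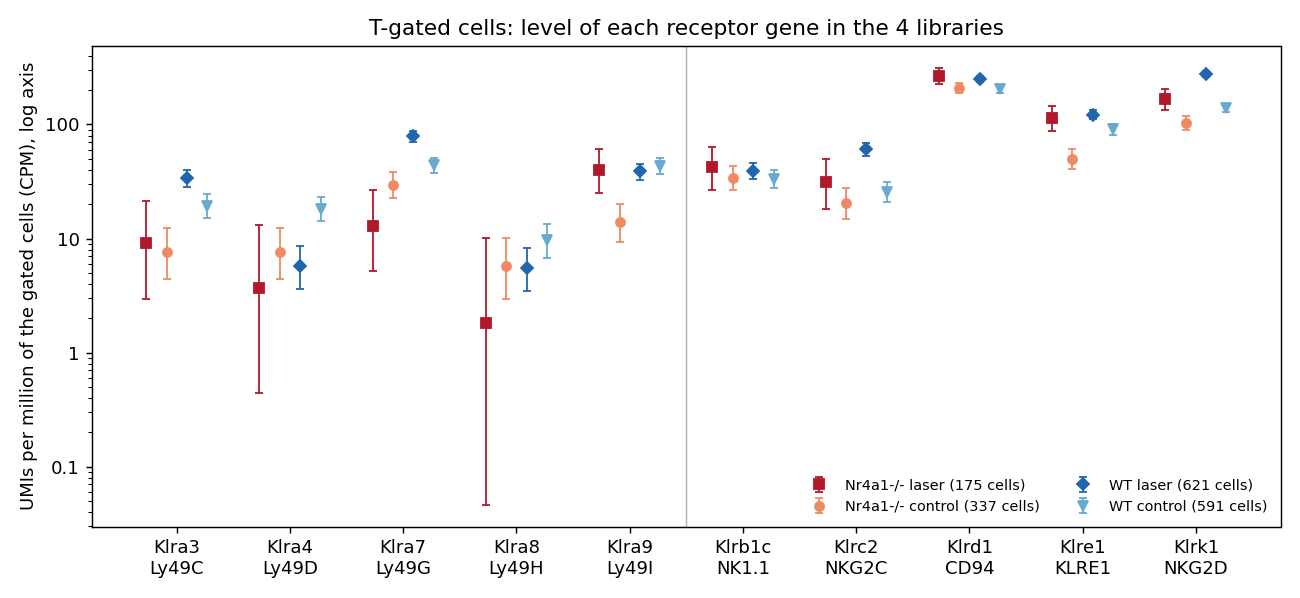
Level of each of the 10 receptor genes in T-gated cells, in CPM with exact 95% counting intervals as bars, for Nr4a1-/- laser, Nr4a1-/- control, WT laser and WT control (1 library each). Klrk1 is highest in WT laser at 276 CPM, and the Ly49 genes stay below 80 CPM in every library.

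Ly49 genes were rare in T cells. They summed to 67.7 CPM in Nr4a1-/- laser, 64.6 CPM in Nr4a1-/- control, 163 CPM in WT laser and 134 CPM in WT control, from only 14, 34, 107 and 70 cells. The Nr4a1-/- to WT ratio was 0.415 (0.289 to 0.578) between the laser libraries and 0.481 (0.394 to 0.583) between the controls. The share of T cells with a Ly49 UMI was 8% (4.44 to 13.1), 10.1% (7.09 to 13.8), 17.2% (14.3 to 20.4) and 11.8% (9.35 to 14.7), and thinned to 2000 UMIs it was 6.21%, 6.83%, 13.05% and 9.18%, in the same order. Few cells carried these sums: 3 cells held 45.9%, 33.3%, 11.9% and 20% of the Ly49 UMIs. The T cells with an Ncr1 UMI, 5, 6, 20 and 16 cells, held 45.9%, 25.9%, 20.5% and 28.7%. Without them the Nr4a1-/- to WT ratio was 0.283 (0.171 to 0.441) between the laser libraries and 0.489 (0.388 to 0.613) between the controls, a choice added after seeing the data.

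Read against all genes, more members were lower in the T cells of Nr4a1-/- than in the background. In the laser pair 3 of 10 were 2-fold lower (Klra3, Klra7 and Klra8, against 8.47%) and none 2-fold higher (2.80%), and in the control pair 3 of 10 were 2-fold lower (Klra3, Klra4 and Klra9, against 3.44%) and none higher (0.414%). Klra8 in the laser pair rested on 1 UMI in Nr4a1-/- laser and 22 in WT laser, with an interval of 0.00806 to 2.06. Klra3 rested on 5 and 136 UMIs in the same libraries. Intervals below 1 were found for 4 members in the laser pair (Klra3, Klra7, Klrc2 and Klrk1, against 7.15%) and for 6 in the control pair (Klra3, Klra4, Klra7, Klra9, Klre1 and Klrk1, against 8.97%). None had an interval above 1, against 5.90% of all genes in the laser pair and 7.49% between the controls. Klra3, Klra7 and Klrk1 were below 1 in both pairs. Klra7 had the lowest ratio, 0.162 in the laser pair, on 7 UMIs in Nr4a1-/- laser and 317 in WT laser.

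After laser, the members outside the Ly49 family were higher in T cells and the Ly49 genes were mixed. In WT, 1 member was 2-fold higher (Klrc2, against 4.73% of all genes) and 1 was 2-fold lower (Klra4, against 1.20%), with intervals above 1 for 6 (Klra3, Klra7, Klrc2, Klrd1, Klre1 and Klrk1, against 21.1%) and below 1 for 2 (Klra4 and Klra8, against 9.54%). In Nr4a1-/-, where 7 members had 20 UMIs in the higher library, 2 were 2-fold higher (Klra9 and Klre1, against 4.54%) and 1 was 2-fold lower (Klra7, against 5.31%). Intervals there were above 1 for 4 (Klra9, Klrd1, Klre1 and Klrk1, against 11.5%) and below 1 for Klra7 alone (8.58%). Klrd1, Klre1 and Klrk1 were above 1 in both genotypes.

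Within T cells the receptors were also read by class, and unclassed T cells held part of them. In the unclassed cells Klrk1 was at 259.5 CPM in Nr4a1-/- laser, 73.4 CPM in Nr4a1-/- control, 351 CPM in WT laser and 118.5 CPM in WT control. Klrd1 was there at 238, 145, 238 and 163 CPM in the same order. In CD8 cells Klrd1 was at 352 CPM in Nr4a1-/- laser, 312 CPM in Nr4a1-/- control, 340.0 CPM in WT laser and 302 CPM in WT control. Klrk1 in CD8 cells was at 152, 140, 254 and 186 CPM, so WT laser was again the highest. CD4 cells had Klrk1 at 10.4, 32.3, 147 and 14.6 CPM, and here WT laser alone stood apart, with 115 of its UMIs in 123 cells. Gamma-delta cells had Klrk1 at 201, 334, 476 and 466 CPM, but they numbered only 9, 11, 55 and 23 cells. The activating Ly49 gene Klra4, which led the NK cells, had 1 UMI in the CD8 cells of Nr4a1-/- control and 0 in the CD8 cells of the other 3 libraries, whereas the inhibitory Klra7 and Klra9 were read there at up to 61.9 CPM and at 14.5 to 56.4 CPM. Klra7 had 0 UMIs in the CD8 cells of Nr4a1-/- laser, where 3 counts would be 13.02 CPM.

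**Figure D5:**
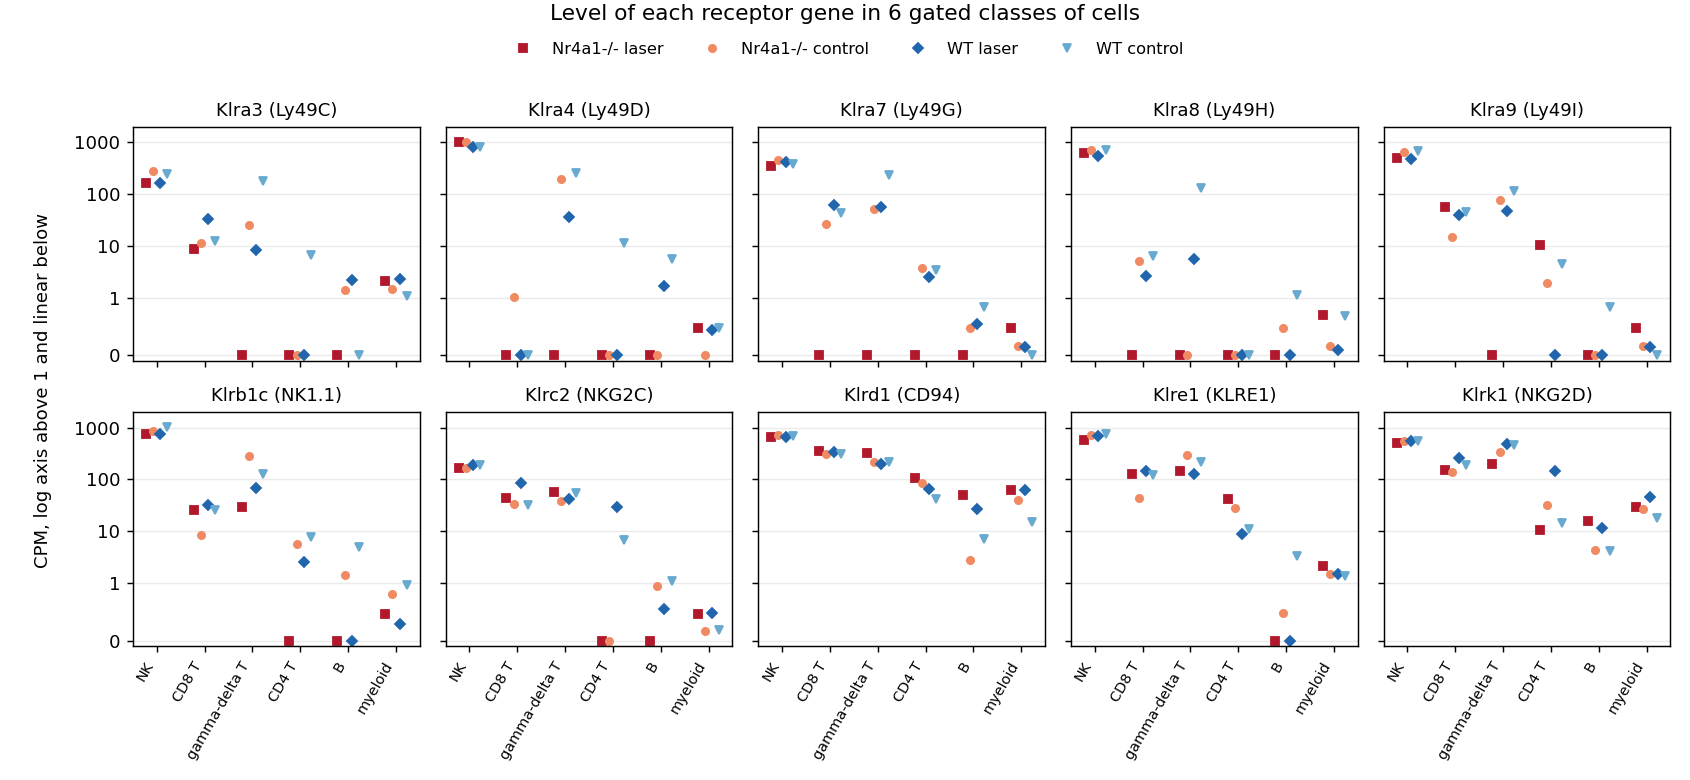
Level of each of the 10 receptor genes in 6 gated classes of cells (NK, CD8 T, gamma-delta T, CD4 T, B and myeloid), in CPM on an axis that is logarithmic above 1 and linear below, with 1 point per library (Nr4a1-/- laser, Nr4a1-/- control, WT laser, WT control). All 10 genes are highest in NK cells in every library, and Klra4 is at or near 0 in CD8 T cells.

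Across NK cells the order of levels was alike in the 4 libraries. A 3' tag count does not scale with transcript length, so CPM was used for the order, although genes can differ in how well their ends are captured. Klra4 and Klrb1c were the highest 2 members in each library and Klra3 and Klrc2 the lowest 2, with Klra7 next above them. Klrd1, Klre1, Klra8, Klra9 and Klrk1 lay between, and neighbours in that middle group mostly had overlapping intervals, as Klrd1 (722 CPM) and Klre1 (712 CPM) did in Nr4a1-/- control.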

How the data were processed

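Live CD45+ cells of 4 groups were profiled with a 10x Genomics 3' kit, which the labels call v2 and the methods v3. Reads were aligned by the authors to mm10 (Cell Ranger 7.0.1), and the deposited tables hold UMI counts of each gene or antibody tag in each called cell, not normalized. RNA and tag libraries were grouped by title, since the genotype and treatment fields of the tag samples all read the same. The members and gene lists were chosen with earlier results of these data known.

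The filter kept cells in which 200 to 5000 genes were detected and mitochondrial UMIs made up no more than 15%. No doublet caller was run, and cells of over 10000 UMIs were left out as an alternative. NK, T, B and myeloid cells were gated on marker genes that are not members. UMIs were summed per gate and library and scaled to CPM. With 1 library per group there was no test. Ratios carry exact conditional binomial intervals, levels exact Poisson intervals and shares exact Clopper-Pearson intervals (95%). For a count of 0, the limit given is 3 counts. For log2 medians 0.5 was added to the counts. Comparisons across genes used those with 20 UMIs in the higher library, and a call was a 2-fold ratio or an interval that left out 1. The scripts were tested on simulated counts. Depth was equalised by thinning cells to 2000 or 1000 UMIs. Positions came from GENCODE M21 and promoters from RefSeq.

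The genes named were the 10 members, Nr4a1 as a check of the labels, up to 5 genes per direction that differed 2-fold in NK cells of both genotype pairs, and list genes by the same limits. The lists were other lectin-like genes of the complex, all other genes between the outer members, adaptors and signalling, ligands, NK cell genes outside the complex, mature NK, immature NK, type 1 innate lymphoid cells, and markers of T cells, B cells, macrophages, photoreceptors and dissociation. In NK cells photoreceptor markers summed to 3.02 to 13.0 CPM. Dissociation genes summed to 1339 CPM in Nr4a1-/- laser, 2007 CPM in Nr4a1-/- control, 1460.0 CPM in WT laser and 1464 CPM in WT control. Alternatives changed the filter, the gates, the depth or the scaling. The tools were Biopython 1.88, matplotlib 3.10.9, pandas 2.3.3, scipy 1.17.1, numpy 2.4.6 and Python 3.11.15.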

Additional observations from a re-analysis of the deposited data

Results flagged for a closer look

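Among the members, and the list genes of NK cells with a ratio of 2-fold or more in either comparison, 3 genes had effects under the same contrast with intervals on opposite sides of 1. List genes with smaller ratios were left out here, and the differences themselves were not tested. In NK cells Klra5 (Ly49E) had an Nr4a1-/- to WT ratio of 28.5 (11.9 to 83.02) between the laser libraries and 0.307 (0.145 to 0.594) between the controls, and a laser-to-control ratio of 9.08 (4.51 to 19.8) in Nr4a1-/- and 0.0976 (0.0343 to 0.227) in WT. It rested on 3 to 13 cells per library. Cd69, an early activation antigen of the complex, had a laser-to-control ratio of 0.496 (0.245 to 0.923) in Nr4a1-/- and 1.502 (1.14 to 1.98) in WT in NK cells. In T cells Klra7 had a laser-to-control ratio of 0.432 in Nr4a1-/-, on 7 UMIs after laser, and 1.81 (1.49 to 2.21) in WT.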

How the results depend on the processing

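Of 632 values under alternatives, 587 stayed within the limits set for them, 42 moved and 3 changed direction. With cells thinned to 2000 UMIs, Klra7 in NK cells had a laser-to-control ratio of 1.09 in Nr4a1-/-, and with cells thinned to 1000 UMIs Klre1 had one of 1.02 in WT and the summed other members had an Nr4a1-/- to WT ratio of 1.02 between the controls. The number of members whose genotype interval left out 1 in NK cells was 5 over both pairs, and 3 with 1 CD3 UMI allowed, 1 at 2000 UMIs and 3 at 1000 UMIs. The number for laser was 9, and 4 at 2000 UMIs and 3 at 1000 UMIs, where fewer UMIs widen the intervals. The Ly49 sum of NK cells had a laser-to-control ratio in WT of 0.9004 at 2000 UMIs and 0.803 at 1000 UMIs, and Nr4a1-/- to WT ratios at 1000 UMIs of 1.25 between the laser libraries and 1.15 between the controls. The other members had a laser-to-control ratio in WT of 0.939 at 2000 UMIs, 0.949 at 1000 UMIs, 0.937 with cells weighted equally and 0.939 without cells of over 10000 UMIs. In T cells the Nr4a1-/- to WT ratio of all members between the laser libraries was 0.609 at 2000 UMIs and 0.659 with cells weighted equally. That of the Ly49 genes was 0.284 at 2000 UMIs and 0.283 without cells with an Ncr1 UMI, and 0.318 between the controls at 1000 UMIs. The cause of these shifts was not tested. Equal weighting gives no interval and therefore no count of intervals. No paired analysis was possible because each group is 1 library and the labels give no replicate numbers. With pooled eyes, differences between mice, between libraries and between groups cannot be told apart, the intervals cover counting error only, and the 110 NK cells of Nr4a1-/- laser are the thinnest basis of any value in NK cells.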

Other observations

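Some members were also counted in myeloid cells, which numbered 725 in Nr4a1-/- laser, 699 in Nr4a1-/- control, 1849 in WT laser and 1262 in WT control. Klrd1 was at 63.3 CPM (56.0 to 71.3), 39.4 CPM (34.6 to 44.7), 63.3 CPM (59.9 to 66.8) and 15.2 CPM (12.9 to 17.8) in those libraries, and Klrk1 at 28.9 CPM (24 to 34.4), 26.4 CPM (22.5 to 30.8), 45.9 CPM (43.0 to 48.9) and 17.9 CPM (15.4 to 20.7). The 5 Ly49 genes together were at 4.19, 1.95, 3.13 and 2.21 CPM in the same cells. In NK cells the Ly49 sum and Klrd1 stood in the opposite order, at 2622 CPM and 643 CPM in Nr4a1-/- laser and at 2838 CPM and 681 CPM in WT control. The laser-to-control ratio of Klrd1 in myeloid cells was 1.61 (1.35 to 1.92) in Nr4a1-/- and 4.17 (3.53 to 4.95) in WT. That of Klrk1 was 1.09 (0.859 to 1.39) in Nr4a1-/- and 2.57 (2.19 to 3.02) in WT. B cells, which should lack both genes, also had more of them after laser. Their Klrd1 ratio was 17.3 (6.64 to 52.9) in Nr4a1-/- and 3.78 (2.29 to 6.40) in WT, and their Klrk1 ratio was 3.64 (1.07 to 11.5) and 2.76 (1.36 to 5.75). The higher values after laser were thus not particular to myeloid cells. Which cells held these transcripts was not tested.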
